A study of Homo sapiens
Mus musculus and Homo sapiens and Mus musculus with 7 samples.

Results

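Ribosomal protein RPL22 is the protein that carries the epitope tags in this study, and its gene was followed here together with that of its paralogue RPL22L1. The 4 genes were human RPL22 and RPL22L1, taken by their GENCODE 29 symbols, and mouse Rpl22 (ENSMUSG00000028936.15) and Rpl22l1 (ENSMUSG00000039221.10), taken by identifier, out of 113473 genes in the count tables. All 4 were found, and all 4 passed the filter on low counts within their species. HEK293 cells, a human embryonic kidney line, expressed RPL22-HA and NIH3T3 cells, a mouse fibroblast line, expressed RPL22-V5. The groups used here were 1 co-culture library of total RNA (the input), 1 HEK293 monoculture, 1 NIH3T3 monoculture, 2 immunoprecipitates (IPs) of the co-culture with an HA antibody and 2 with a V5 antibody, a first and a second IP for each antibody. The first HA and first V5 IP were labelled as made from the lysate of sample 1, and the second HA and second V5 IP from lysates with other numbers, which differed from each other. Which species' coding sequence was tagged, what promoter drove it, whether the lines were clones and whether the monocultures expressed it was not stated in the sources used here. Nothing says that the libraries of a pair came from separate cultures, so the spread behind the p-values below may be technical. That spread was taken largely over all genes together rather than from each gene's own pairs.

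RPL22, also called eL22, sits on the surface of the large ribosomal subunit. Cells can make ribosomes without it, and RPL22L1 can take its place there. In mouse cells RPL22 is known to bind the RNA of its paralogue and to hold it down. A tagged RPL22 that enters ribosomes lets an antibody pull down those ribosomes with the mRNA they hold, which is the basis of tagging a cell type for RNA profiling.

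The counts had no means of separating the tagged transcript from the cell's own. They were summed per gene over annotated exons, so a tagged coding sequence would be counted only where its reads matched a gene's exons. RPL22 (ENSG00000116251.10) lies at hg38 chr1:6185020-6209389 on the minus strand and RPL22L1 (ENSG00000163584.17) at chr3:170864875-170870483, also on the minus strand. The main mRNA of RPL22 in GENCODE 29, RPL22-201, has 4 exons, 2078 bases and a coding sequence of 384 bases (128 codons). Exons 2 and 3, which hold 230 coding bases (59.9% of the coding sequence), are also exons of the gene AL031847.2, annotated on the same strand. The counting command in the file headers has no option to assign a read to more than 1 gene, and with that setting a read pair that matches both genes equally is assigned to neither. AL031847.2 itself had 1 count in the input and 0 in the other 6 libraries. How many reads RPL22 lost in this way was not tested. Over all annotated RPL22 exons, 474 of 4682 bases (10.1%) were shared with other genes, 243 of them with RNF207 on the opposite strand. RPL22L1 shared none of its 2326 exonic bases. Mouse Rpl22 (chromosome 4, 152325742 to 152334071, plus strand; mouse build not given in the sources used here) shared none of 2911 bases. Mouse Rpl22l1 (chromosome 3, 28805436 to 28807424, plus strand) shared 159 of 1989 bases with ENSMUSG00000104444.1, which had 0 counts in all 7 libraries.

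The coding sequence shows which part of RPL22 is shared with another annotated gene. It is the reference sequence of the main mRNA in GENCODE 29 (hg38), written 5′ to 3′ from the start codon to 30 bases past the marked stretch (positions 1 to 272). The capitals mark the bases shared with exons of AL031847.2.
RPL22: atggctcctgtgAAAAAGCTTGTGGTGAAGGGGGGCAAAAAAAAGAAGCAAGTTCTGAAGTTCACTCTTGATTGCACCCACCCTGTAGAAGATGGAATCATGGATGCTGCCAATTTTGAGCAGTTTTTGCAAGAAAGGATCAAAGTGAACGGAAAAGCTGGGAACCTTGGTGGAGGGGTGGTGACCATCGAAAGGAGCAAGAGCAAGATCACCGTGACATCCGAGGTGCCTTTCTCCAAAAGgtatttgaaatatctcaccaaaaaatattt
The 230 capitals run from position 13 to 242, so most of the first part of the coding sequence lies in shared exons. Aligned end to end, 247 of 347 paired bases were identical between the paralogues (71.2%), and the longest identical run had 17 bases. The processed pseudogene RPL22P1 was much closer. It matched RPL22 at 360 of 372 paired bases (96.8%), with an unbroken identical run of 290 bases that covered coding positions 95 to 384, counted from the start codon.

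**Figure D1:**
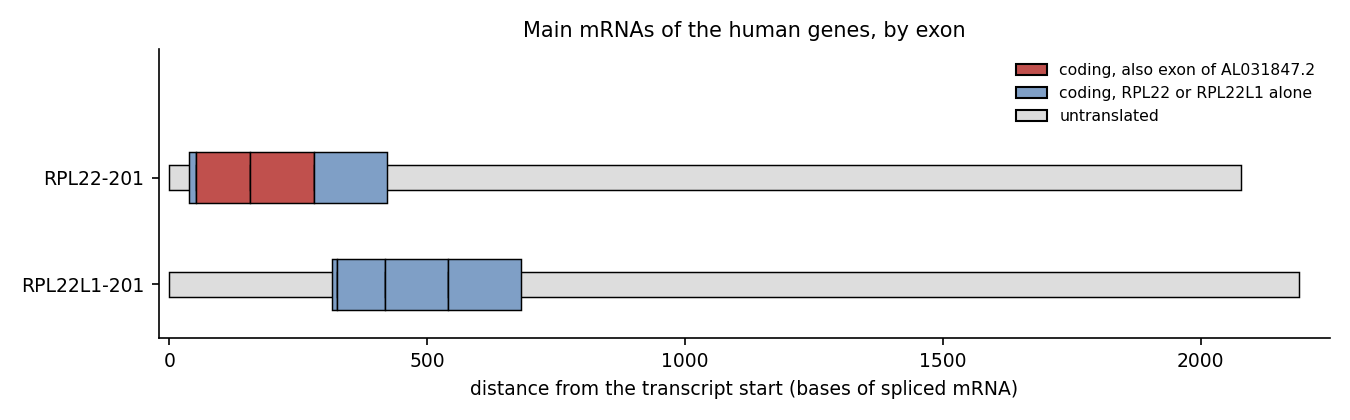
Exons of the main human mRNAs, drawn to scale by distance from the transcript start in bases, with tall boxes for coding and low boxes for untranslated sequence. In RPL22-201 the 230 coding bases of exons 2 and 3 (red) are also annotated as AL031847.2, while RPL22L1-201 has no shared bases.

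Library depth limited what could be said of the human genes in the input and the V5 IPs. Total counts ran from 826781 in the HEK293 monoculture to 2063885 in the first V5 IP. Human counts were 280163 in the input, against 729698 and 1213213 for HA and 128915 and 81798 for V5, and all levels below are CPM, counts scaled to 1000000 counts of the gene's own species. As a check of the labels, human genes held 82.1% and 77.6% of counts after HA pull-down and 6.25% and 4.48% after V5 pull-down. Of 5 HEK293 markers, NEFM was at 0 in all 7 libraries, INA at 0 in the input and both HA IPs, and the summed level of the list was 304 CPM in HEK293, 182 in the input, 183 to 247 in the HA IPs and 73.4 to 85.3 in the V5 IPs. The 8 human fibroblast markers summed to at most 4 counts in any library, and mouse markers were not looked up because mouse identifiers had no symbols.

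Human RPL22 was a low-count gene that lay higher in every IP than in either library of total RNA. It had 73 counts in HEK293, 33 in the input, 168 and 223 in the HA IPs, first and second, with 25 and 38 for the V5 IPs. As CPM these were 88.3 in HEK293 (Poisson 95% interval 69.2 to 111), 118 in the input (81.1 to 165), while the HA IPs had 230 (197 to 268) and 184 (160 to 210) and the V5 IPs 194 (125 to 286) and 465 (329 to 638). The highest level was that of the second V5 IP, 2.40 times that of the first (1.41 to 4.14, counting error only), so the 2 V5 IPs differed more than counting error allows. The second HA IP stood at 0.798 times the first (0.651 to 0.981). The HA pair had 207 ± 32.8 CPM (SD, n = 2) and the V5 pair 329 ± 191 CPM (SD, n = 2). Neighbours in the order of levels overlapped in their intervals from HEK293 to the first HA IP, the input and the second HA IP included. The interval of the first V5 IP overlapped those of the input and both HA IPs, and the second V5 IP stood above all the others. Intervals cover counting error only, since reads without molecular identifiers are not independent molecules. In IPs and in total RNA alike, a level averages over the cells of a line. Fewer cells that express the gene and less of its RNA per cell therefore cannot be told apart.

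**Figure D2:**
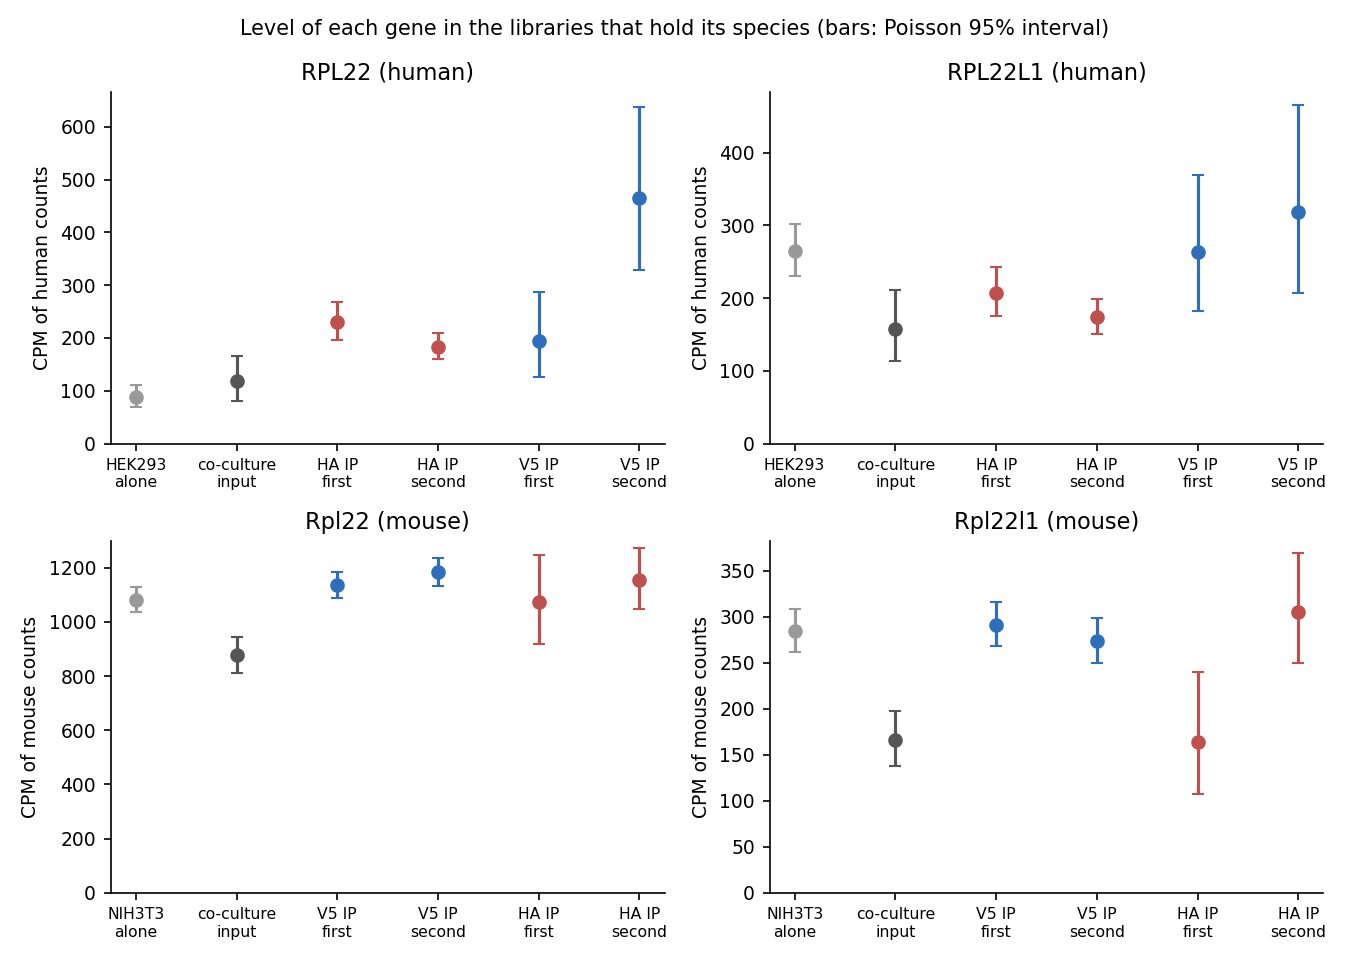
Level of each gene in CPM of its own species' counts, 1 point per library with its Poisson 95% interval, for the 6 libraries that hold the species. Human RPL22 was lowest in HEK293 (88.3 CPM) and highest in the second V5 IP (465 CPM), while mouse Rpl22 stayed between 877 and 1185 CPM.

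No difference of RPL22 between groups passed the test. HA IPs against the HEK293 monoculture gave a log2 difference of 1.21 (SE 0.75, 95% interval −0.26 to 2.69), with both HA IPs above the monoculture; edgeR's quasi-likelihood test gave an adjusted p of 1.00. In that comparison 0.368% of 6244 human genes were called in either direction, the 2 groups did not overlap for 67.7% of genes, and 88.4% of genes had a lower log2 difference than RPL22. Against the input, the HA IPs gave 0.62 (SE 0.75, interval −0.86 to 2.09; edgeR adjusted p = 0.887), beside a median of 0.38 over all genes and 0.625% of genes called. Both HA IPs lay above the input without overlap, and the 2 groups did not overlap for 77.9% of genes. HA against V5 IPs gave −0.27 (SE 0.60, interval −1.45 to 0.90; edgeR adjusted p = 0.893), beside a median of 0.37 and 0.368% of genes called, and the 2 pairs overlapped. That direction rested on 1 library: without the second V5 IP the log2 difference was 0.45, and without the first it was −0.79. Its size also moved with the counts used. With human counts subtracted at the rate seen in the NIH3T3 monoculture the log2 difference was −0.066. With RPL22 and its pseudogenes summed it was −0.67.

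The V5 tag was expressed in the mouse line, so counts on human RPL22 in the V5 IPs lie on the species without the matching tag, and their origin was not tested. V5 IPs against the input gave a log2 difference of 0.89 (SE 0.78, interval −0.64 to 2.42; edgeR adjusted p = 0.627), beside a median of 0 over all genes and 0.753% of genes called. Both V5 IPs lay above the input, and the 2 groups did not overlap for 57.5% of genes. The size rested on the second V5 IP: without it the difference was 0.19 (edgeR adjusted p = 0.954), and without the first V5 IP it was 1.42 (edgeR adjusted p = 0.356). Scaled by total human counts it was 1.46 (edgeR adjusted p = 0.365). With human counts subtracted at the rate seen in the NIH3T3 monoculture it was 0.77 (edgeR adjusted p = 0.692). With RPL22 and its pseudogenes summed it was 1.36 (edgeR adjusted p = 0.430).

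RPL22L1 did not follow the order of RPL22. Its counts ran from 26 in the second V5 IP to 219 in HEK293. As CPM its levels were 265 in HEK293 (Poisson 95% interval 231 to 302), 157 in the input (114 to 211), while the HA IPs had 207 (175 to 243) and 174 (151.2 to 199) and the V5 IPs 264 (183 to 369) and 318 (208 to 466). The HA IPs lay below HEK293 and above the input, and both V5 IPs lay above both HA IPs. HA IPs did not overlap HEK293 for 67.7% of human genes tested, nor the input for 77.9%. Means were 190 ± 23.3 CPM in the HA and 291 ± 38.3 CPM in the V5 IPs (SD, n = 2 each).

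None of these differences passed the test either. The log2 difference of RPL22L1 was −0.48 for HA IPs against HEK293 (SE 0.67, interval −1.80 to 0.83; edgeR adjusted p = 1.00). It was −0.23 for HA against V5 IPs (SE 0.59, interval −1.38 to 0.92; edgeR adjusted p = 0.912), where the 2 groups did not overlap for 40.7% of all genes. V5 IPs against the input gave 0.32 (SE 0.74, interval −1.13 to 1.77; edgeR adjusted p = 0.886). HA IPs against the input gave 0.088 (SE 0.71, interval −1.31 to 1.48; edgeR adjusted p = 0.991), a value whose sign turned to −0.13 when libraries were scaled by DESeq2 size factors.

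Taking the 2 genes as a pair, HEK293 cells alone held more RPL22L1 counts per RPL22 count than any library of the co-culture. Counts of RPL22L1 per count of RPL22 were 3.0 in HEK293 (exact 95% interval 2.29 to 3.97) and 1.33 in the input (0.830 to 2.16). The HA IPs had 0.899 (0.717 to 1.13) and 0.946 (0.780 to 1.15), and the V5 IPs 1.36 (0.788 to 2.38) and 0.684 (0.399 to 1.16). The interval of HEK293 overlapped that of the first V5 IP but not those of the input, the HA IPs or the second V5 IP, and the HA IPs agreed within counting error. With 1 HEK293 library there is no replicate check of that difference. On the log2 scale per kb of exonic length, with 0.5 counts added, the ratio was 0.89 ± 0.05 in the HA and 0.96 ± 0.69 in the V5 IPs (SD, n = 2 each). For that difference of −0.065 a two-sided exact permutation test gave p = 1.00, where the smallest possible p is 0.33. Per kb of annotated exonic length RPL22L1 was 6.04 times RPL22 in HEK293. Per kb of main mRNA without the bases shared with AL031847.2 (1848 for RPL22 and 2190 for RPL22L1) it was 2.53 times, so the size of the ratio depends on the length used and the differences between libraries do not.

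**Figure D3:**
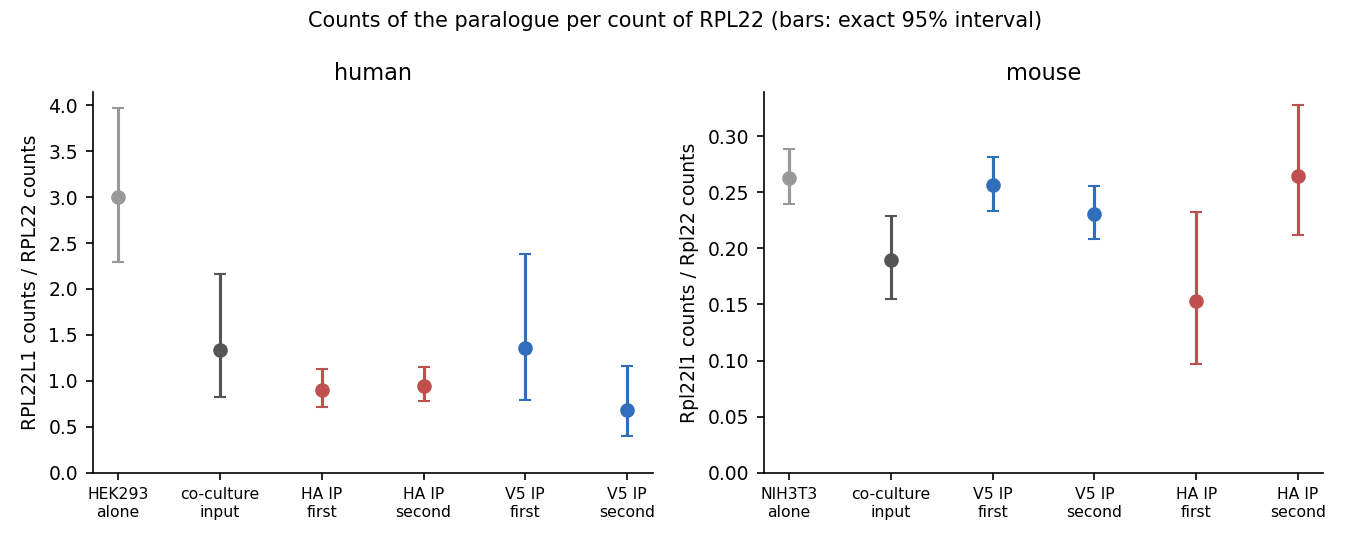
Counts of the paralogue per count of RPL22 in each library, with exact 95% intervals, human on the left and mouse on the right on separate linear axes. HEK293 alone stands at 3.0 and both HA IPs near 0.9, while the mouse ratio runs from 0.153 to 0.264.

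Mouse Rpl22 was counted far more deeply and was the steadiest of the 4 genes. It had 2164 counts in NIH3T3, 666 in the input, 2197 and 2067 for V5 (first and second IP) and 170 and 405 for HA. As CPM of mouse counts these were 1083 in NIH3T3 (Poisson 95% interval 1038 to 1129), 877 in the input (811 to 946), with 1135 and 1185 for V5 and 1072 and 1157 for HA. The input was the lowest library and the other 5 lay close together. The second V5 IP stood at 1.04 times the first (0.982 to 1.11, counting error only). Means were 1160 ± 35.0 CPM in the V5 and 1114 ± 59.7 CPM in the HA IPs (SD, n = 2 each).

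V5 IPs against the input gave a log2 difference of Rpl22 of 0.14 (SE 0.44, interval −0.75 to 1.03; edgeR adjusted p = 0.980), beside a median of 0.12 and 0.815% of 8221 mouse genes called. V5 IPs against NIH3T3 gave 0.045 (SE 0.43, interval −0.84 to 0.93; edgeR adjusted p = 0.998; 0.377% of genes called). Both V5 IPs lay above NIH3T3, and groups did not overlap for 74.1% of genes. V5 against HA IPs gave 0.26 (SE 0.36, interval −0.47 to 0.99; edgeR adjusted p = 0.853; 0.268% of genes called), and the 2 pairs overlapped, while they did not for 40.3% of genes. HA IPs against the input gave −0.12 (SE 0.43, interval −1.01 to 0.77; edgeR adjusted p = 0.933; 1.63% of genes called), but 0.35 when scaled by total mouse counts, the direction of the CPM above, where groups did not overlap for 60.6% of genes. It was also 0.18 with at least 50 counts in 2 libraries and 0.11 without the first HA IP, so its sign was not settled. All 4 intervals reach past 0.7 on the log2 scale, so these values do not show that the level was the same.

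Mouse Rpl22l1 varied more, and its first HA IP stood with the input. It had 569 counts in NIH3T3, 126 in the input, 564 and 477 for V5 and 26 and 107 for HA. As CPM of mouse counts these were 285 in NIH3T3 (Poisson 95% interval 262 to 309), 166 in the input (138 to 197), with 291 and 273 for V5, and 164 (107 to 240) and 306 (250 to 369) for HA. The first HA IP and the input lay low, and the V5 IPs, NIH3T3 and the second HA IP lay together at a higher level. The second HA IP was at 1.86 times the first (1.20 to 2.98, counting error only). Means were 282 ± 12.7 CPM in the V5 and 235 ± 100.1 CPM in the HA IPs (SD, n = 2 each).

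The V5 IPs lay above the input by a log2 difference of 0.51 (SE 0.51, interval −0.53 to 1.54; edgeR adjusted p = 0.872), with no overlap, as for 78.7% of mouse genes. V5 IPs against NIH3T3 gave −0.066 (SE 0.48, interval −1.06 to 0.92; edgeR adjusted p = 0.998), and HA IPs against the input gave 0.11 (SE 0.51, interval −0.94 to 1.15; edgeR adjusted p = 0.956). The second of these was −0.73 without the second HA IP (edgeR adjusted p = 0.269) and 0.60 without the first (edgeR adjusted p = 0.316). V5 against HA IPs gave 0.40 (SE 0.41, interval −0.44 to 1.24; edgeR adjusted p = 0.792). This last value rested on single HA IPs: without the second HA IP it was 1.21 and passed (edgeR adjusted p = 0.0248), and without the first it was −0.076 (edgeR adjusted p = 0.907). Rpl22l1 counts per count of Rpl22 were 0.263 in NIH3T3 (exact 95% interval 0.239 to 0.289), 0.189 in the input (0.155 to 0.229), with 0.257 and 0.231 for V5 and 0.153 and 0.264 for HA. The V5 pair, NIH3T3 and the second HA IP thus held close to 1 count of the paralogue per 4 of Rpl22. The first HA IP and the input had the lowest ratios. Per kb of exonic length the ratio was 0.385 in NIH3T3. For V5 against HA IPs the log2 ratio per kb differed by 0.26, with an exact permutation p of 1.00 (two-sided; smallest possible 0.33).

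Over both species, 0 of 16 comparisons of a member were called by edgeR (adjusted p under 0.05), 0 had an unadjusted p under 0.05, the smallest being 0.105 for RPL22 in HA IPs against HEK293, and DESeq2 called 0 of the 14 for which it gave an adjusted p. For RPL22 and RPL22L1 in HA IPs against HEK293 its adjusted p was NA, with unadjusted p of 0.131 and 0.394. The comparisons of a species share libraries and are not independent of each other.

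**Figure D4:**
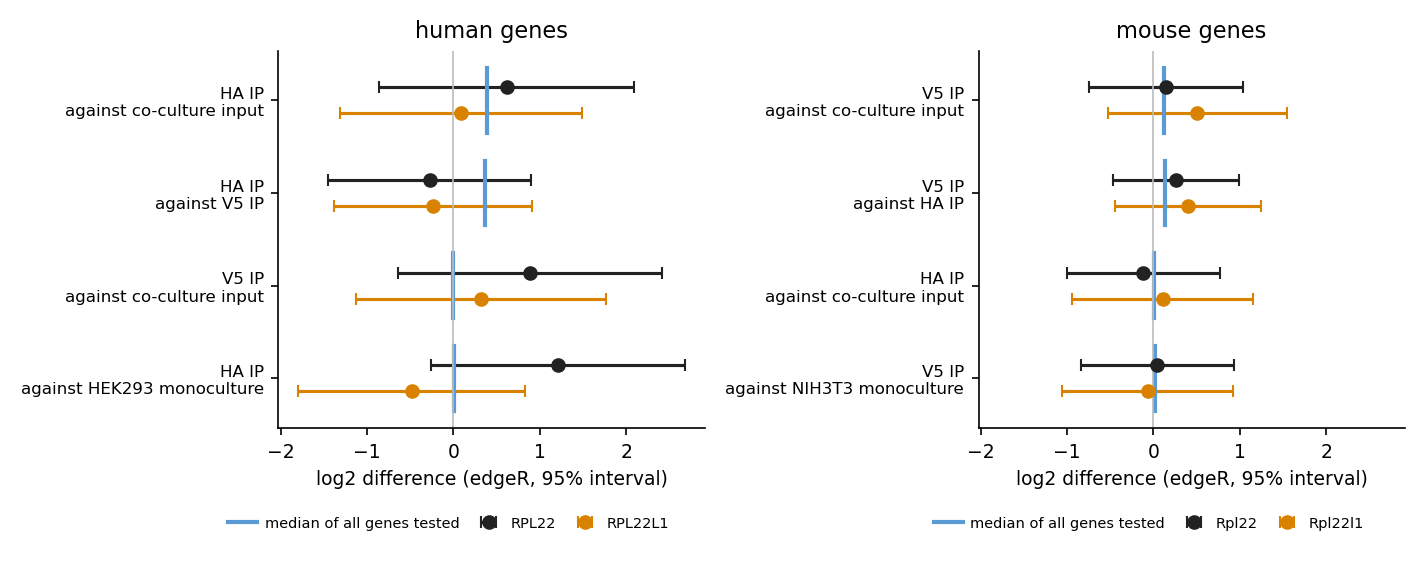
Fitted log2 differences of the 4 genes with their 95% intervals from edgeR, 1 row per comparison, with the median over all genes tested as a blue bar. All 16 intervals cross 0, and the human intervals are wider than the mouse ones.

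The co-culture input was then set beside each monoculture, 1 library against 1, without a test. Both paralogues lay below their monoculture level in the co-culture. RPL22L1 was at 0.593 times its HEK293 level (exact 95% interval 0.419 to 0.823) and Rpl22l1 at 0.583 times its NIH3T3 level (0.476 to 0.708). RPL22 was at 1.33 times its HEK293 level (0.856 to 2.04) and Rpl22 at 0.810 times its NIH3T3 level (0.741 to 0.884). These ratios were not extreme among genes: 41.3% of the 2558 human genes compared had a lower ratio than RPL22L1, and 26.4% of 2475 mouse genes a lower one than Rpl22l1, with medians of 0.804 and 0.893. Both values for the co-culture come from the same library.

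Counts on human genes were found in the NIH3T3 monoculture, and human RPL22 was among those genes. That library, from a mouse line, had 5 counts on RPL22 of 511 on all human genes (0.978%, exact 95% interval 0.318 to 2.27%). RPL22 ranked 9 among the 226 human genes with a count in that library, in which TNR had the most with 160. The 5 counts were 0.231% of the 2164 counts on mouse Rpl22, against 0.0256% for all human counts over all mouse counts. RPL22L1 had 0 counts in NIH3T3, and Rpl22 and Rpl22l1 had 0 counts in HEK293, where a count of 0 allows up to 3 counts, or 3.63 CPM of all counts in that library. With counts at the NIH3T3 rate subtracted, RPL22 in the V5 IPs went from 25 and 38 to 20 and 34 counts, or 155 and 416 CPM, and the input to 31 counts, or 111 CPM. That rate rests on 5 counts, with the wide interval given above, so the subtracted levels are uncertain. Whether those 5 counts came from mouse RNA was not tested.

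Of 22 processed pseudogenes in the annotation, RPL22P1 and RPL22P2 took most of the counts. RPL22P1 had 4 counts in HEK293, 1 in the input, 11 and 11 for HA, 8 and 9 for V5 and 3 in NIH3T3, and RPL22P2 had 0, 1, 5 and 9, 3 and 6, and 0 in the same order. Of all counts on RPL22 and its pseudogenes, the pseudogenes held 5.19% in HEK293 (4 of 77, exact 95% interval 1.43 to 12.8%) and 5.71% in the input (2 of 35, 0.70 to 19.2%). In the HA IPs the share was 10.2% (19 of 187, 6.23 to 15.4%) and 9.72% (24 of 247, 6.33 to 14.1%). In the V5 IPs it was 32.4% (12 of 37, 18.0 to 49.8%) and 30.9% (17 of 55, 19.1 to 44.8%). In NIH3T3 the share was 4 of 9 counts. The share was 21.7 percentage points higher in V5 than in HA IPs, and the pairs did not overlap. A two-sided exact permutation test gave p = 0.33, which is the smallest it can reach with 2 libraries a group. Subtracting counts at the NIH3T3 rate left shares of 31.0% and 29.2% in the V5 IPs. This share was chosen for description after its values were seen. Where the pseudogene reads came from, including a tagged coding sequence, was not tested.

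**Figure D5:**
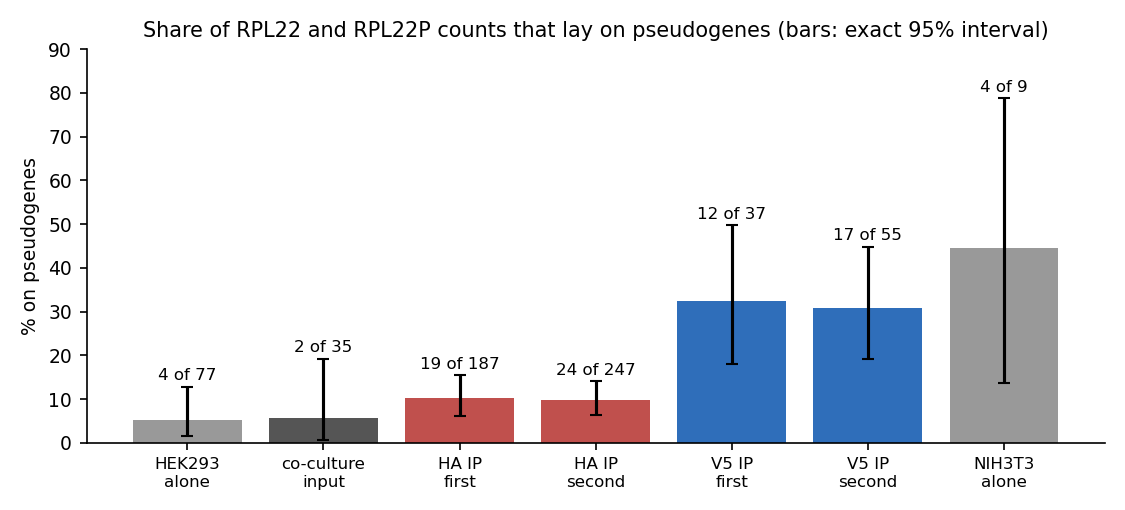
Percentage of the counts on RPL22 and its 22 processed pseudogenes that lay on the pseudogenes, per library, with exact 95% intervals and the counts above each bar. Both V5 IPs are above 30%, both HA IPs near 10%, and HEK293 and the input near 5%.

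Among the proteins of the large subunit, RPL22 was counted at a low level per length. The other 46 genes of that subunit held 15.1 to 18.3% of human counts in the 6 libraries with human cells, and by the mean over those libraries the highest were RPL13 and RPL8, both structural proteins of the subunit. RPL13 had 10433 CPM in HEK293 and 19881 CPM in the input. Its levels were 15935 CPM in the first HA IP and 17469 CPM in the first V5 IP. In the second IPs RPL13 was lower, at 3706 CPM for HA and 3007 CPM for V5, and the cause was not tested. RPL8 ran from 7447 CPM in HEK293 to 16740 CPM in the input. In HEK293 their median was 840 CPM per kb (range 5.19 to 3705), against 18.9 CPM per kb for RPL22 and 114 for RPL22L1. Only 1 of the 46 was below RPL22 and 2 were below RPL22L1. With its shorter main mRNA as length, the other genes keeping their full exonic length, RPL22 stood at 47.8 CPM per kb, with 2 of 46 below it. Over the other 5 libraries 1 to 5 of the 46 were below RPL22, and 2 to 10 with the shorter length, the most in the second V5 IP both times. Mouse Rpl22, with no shared bases, was at 372 CPM per kb in NIH3T3. Since lengths and shared bases differ, the human and mouse levels cannot be set against each other.

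Calls among other ribosomal protein genes were read against the share over all genes. In HA IPs against the input, where 0.625% of all genes were called, 0 of 46 large-subunit genes were called, with 19 above and 27 below 0 and a median log2 difference of −0.15 against 0.38 over all genes. Of 32 small-subunit genes 1 was called: RPSA, a protein of the small subunit that is also known as a laminin receptor, fell by 1.84 on the log2 scale, from 3305 CPM in the input to 1107 and 988 CPM (SE 0.48; edgeR adjusted p = 0.0304), with a list median of −0.30. In HA IPs against HEK293 the medians were −0.20 and −0.29 against 0.01 over all genes, with 0 called in both lists and 0.368% of all genes called. In HA against V5 IPs they were 0.39 and 0.41 against 0.37, and in V5 IPs against the input −0.53 and −0.70 against 0, with 0 called in each, where 0.368% and 0.753% of all genes were called. The values of RPL22 given above, 0.62, 1.21, −0.27 and 0.89 in the same order, were not tested against these medians, and the third was 0.45 without the second V5 IP.

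Of 7 other paralogues of ribosomal proteins 5 passed the filter, and 0 were called in any of the 4 human comparisons. In HA IPs against the input all 5 lay above 0 and 4 of 5 above the median over all genes of 0.38. The log2 differences were 2.12 for RPL7L1 (SE 1.09; edgeR adjusted p = 0.565), a relative of RPL7, and 1.25 for RPL36AL (SE 0.60; edgeR adjusted p = 0.524), which encodes nearly the same protein as RPL36A. They were 0.82 for RPL26L1, 0.53 for RPS27L, known as a target of p53, and 0.23 for RPL39L, known from testis. Against HEK293 the same genes gave 0.16, 0.17, −0.085, 0.23 and 1.20, and none passed. In HA against V5 IPs 3 of the 5 lay above 0, and in V5 IPs against the input also 3 of 5.

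Over the 6 libraries, the human gene whose log2 level was most like that of RPL22 was GOLM1 (Pearson's r = 0.963), followed by TMEM97 (0.959), among 2254 genes with a mean of at least 50 CPM. For RPL22L1 they were SSU72 (0.972), PPP1CB (0.967) and GOLGB1 (0.965). All 5 of these genes had their highest level in the second V5 IP, the library with the fewest human counts. For Rpl22 they were ENSMUSG00000039756.12 (0.996), ENSMUSG00000078427.3 (0.992) and ENSMUSG00000022111.9 (0.991), and for Rpl22l1 ENSMUSG00000037058.15 (0.984), ENSMUSG00000041841.8 (0.971) and ENSMUSG00000038965.17 (0.969), among 2230 mouse genes. With 6 points that share libraries these are descriptions, and 18 human and 100 mouse genes had r above 0.9 with RPL22 and Rpl22.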

How the data were processed

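RNA was measured in 7 libraries. Per the labels' protocols, SMART-seq gave the cDNA and Nextera DNA Flex the libraries. The authors deposited raw counts of read pairs per gene: per the file headers, featureCounts 1.5.2 counted pairs over exons by gene, unstranded (option 0), with human and mouse genes in 1 table. The submitters' processing notes name STAR 2.5.2, Trim Galore and hg38. All 58721 human identifiers matched GENCODE 29; none of 54752 mouse identifiers had a symbol.

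Each species was fitted on its own counts with TMM scaling by edgeR 4.0.16 in R 4.3.3 (quasi-likelihood test, two-sided, Benjamini-Hochberg over all genes tested, threshold 0.05; filterByExpr, minimum count 10, minimum total 15) over both IP pairs, the input and that species' monoculture. The spread came from the IP pairs (2 residual degrees of freedom per gene; biological coefficient of variation 51.2% human, 44.8% mouse), and single libraries were assumed to vary like them. Each gene's spread was drawn by edgeR towards that of all genes, so a member's own pairs weighed little in its p-value. Alternatives were DESeq2 1.42.0 (test or size factors), total-count scaling, 2 other filters, IP order as a block, only the groups compared, subtracted cross-species counts, leaving out each IP, and, after seeing the data, RPL22 summed with its pseudogenes. Data were simulated for human HA IPs and mouse V5 IPs, each against the input, with a common spread for all genes of a species. There the test recovered only a minority of the changes built in, the largest included. The other comparisons were not simulated, and in none was an uncalled gene shown to be unchanged. Intervals of levels, count ratios and shares are exact at 95%, while those of the log2 differences are approximate, from the edgeR value and its SE. No 2 libraries had identical counts. Python 3.11.15 with scipy 1.17.1 and biopython 1.88 did the rest.

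The members and gene lists were chosen with earlier results of these data known. Named genes were the members, the 3 genes most like each (log2 of CPM + 1, Pearson), the 2 most abundant and up to 4 called genes of each list described, the paralogues that passed the filter, and genes that share exons with a member. A few items that this rule names, and 1 sequence, are not reported here.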

Additional observations from a re-analysis of the deposited data

Results flagged for a closer look

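Human RPL22 had 5 counts in the monoculture of the mouse line NIH3T3, above the 3 that a count of 0 allows. Their origin was not tested. The processed pseudogene RPL22P1, which was not tested on its own, was above its level in the input (3.57 CPM of human counts) and in HEK293 (4.84 CPM) in all 4 IPs, at 15.1 and 9.07 CPM in the first and second HA IP and 62.1 and 110.03 CPM in the first and second V5 IP. These rest on 8 to 11 counts per IP, against 1 count in the input and 4 in HEK293. NIH3T3 alone also had 3 counts on RPL22P1, and none were subtracted from these levels. The RPL22L1 to RPL22 ratio lay on opposite sides of the input in the 2 lines: in the IPs with the matching tag its log2 difference from the input was −0.53 on average for human counts (−0.56 and −0.49) and 0.36 for mouse counts (0.44 and 0.28). That difference between the lines was not tested, and all 4 values share the single input library. For human counts the exact interval of the input ratio (0.830 to 2.16) overlapped those of both HA IPs. For mouse counts the input (0.155 to 0.229) overlapped the second V5 IP (0.208 to 0.255) but not the first (0.234 to 0.282). The IPs with the other tag had the same signs on average. They gave −0.46 for human counts (0.026 and −0.95) and 0.097 for mouse counts (−0.29 and 0.48), so each pair was split around the input.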

How the results depend on the processing

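Of 200 alternative values of the 16 member comparisons, 181 kept their direction and stayed uncalled, 2 kept it with an adjusted p of NA in DESeq2, 16 turned direction without a call, in 7 comparisons, and 1 was called. RPL22L1 in HA IPs against the input was −0.13 with DESeq2 size factors or DESeq2's test, −0.091 with at least 50 counts in 2 libraries, −0.047 with only the groups compared, and −0.018 to 0.11 leaving out single IPs. RPL22 in HA against V5 IPs ran from −0.79 to 0.45 leaving out single IPs. Rpl22 in HA IPs against the input was 0.35 by total counts, 0.18 with 50 counts in 2 libraries, 0.048 with only the groups compared, and −0.42 to 0.11 leaving out single IPs. In V5 against HA IPs Rpl22 was −0.055 with 50 counts in 2 libraries, and Rpl22l1 ran from −0.076 to 1.21 leaving out single IPs. Rpl22l1 in HA IPs against the input ran from −0.73 to 0.60 leaving out single IPs. In V5 IPs against NIH3T3 Rpl22 was −0.020 with no filter. The paralogue ratio ran from −0.55 to 0.42 (human) and from −0.12 to 0.65 (mouse) leaving out single IPs. The cause of these turns was not tested. Human members had 25 to 44 counts in the input and V5 IPs, which limits their precision there, and comparisons with single libraries borrow their spread from the IP pairs.

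IP order was tried as a replicate block. Deviations of same-numbered IPs correlated with r = 0.187 over 2255 human and 0.341 over 2231 mouse genes, but only the first IPs share a lysate, so the numbers were not taken as a pairing. With the block, Rpl22l1 in HA IPs against the input was −0.21 and Rpl22 in V5 IPs against NIH3T3 −0.082, calls were 112 in mouse V5 IPs against the input and 56 in V5 IPs against NIH3T3, and no member was called.

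Counts of called genes, the background of the report, moved widely. For HA IPs against the input (39 human genes) they were 68 with size factors, 104 by total counts, 82 with DESeq2, 260 with only the groups compared and 29 to 140 leaving out single IPs. For HA against V5 IPs (23 human genes) they were 38 by total counts and 18 to 117 leaving out single IPs. For V5 IPs against the input (47 human genes) they were 72, 105, 30 with no filter, 7 with 50 counts in 2 libraries, 71 with only the groups compared and 76 to 167 leaving out single IPs. For HA IPs against HEK293 (23 genes) they were 53 by total counts, 35 with DESeq2, 48 with only the groups compared and 26 to 63 leaving out single IPs. For mouse V5 IPs against the input (67 genes) they were 110 with DESeq2, 896 with only the groups compared and 1 to 867 leaving out single IPs. For V5 against HA IPs (22 mouse genes) they were 13 with 50 counts in 2 libraries, 12 with only the groups compared and 2 to 794 leaving out single IPs. For mouse HA IPs against the input (134 genes) they were 30 with 50 counts in 2 libraries, 20 to 1381 leaving out single IPs, and 0 in edgeR with only the groups compared, where 347 genes had an unadjusted p under 0.05 and DESeq2 over all libraries called 159. For V5 IPs against NIH3T3 (31 genes) they were 65 with no filter, 11 with 50 counts in 2 libraries, 665 with only the groups compared and 4 to 648 leaving out single IPs.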
